A study of Mus musculus with 9 samples.

Results

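The genes of 10 transcription factors that direct squamous fate were followed in mouse prostate organoids: Trp63, Bcl11b, Grhl1, Grhl2, Grhl3, Klf4, Klf5, Ovol1, Zfp750 and Tfap2a. They were taken by symbol from a table of 52249 entries, and all 10 were among the 12396 genes tested. The organoids were grown from basal cells of the prostate, and in all 9 libraries the genotype was given as Mpc1 floxed. Mpc1 is a subunit of the mitochondrial pyruvate carrier. The 3 Vehicle libraries came from organoids with a lentivirus that carries the gene of a red fluorescent protein (RFP), kept in the solvent alone. The 3 UK5099 libraries came from organoids with the same virus kept for one week in 10 µM UK5099, a small molecule that blocks the carrier. The 3 Mpc1-KO libraries came from organoids with a lentivirus for both Cre recombinase, which cuts out floxed DNA, and RFP, kept in the solvent. Per the study's methods, infected cells were sorted for RFP, and Cre came from the virus. Effects of Cre itself and of the deletion cannot be told apart, since no Mpc1 wild-type library with Cre was analysed here. The labels gave no age of the animals and did not say whether replicates were separate animals or cultures, so that p-values measure the spread between these libraries.

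Squamous epithelium is layered, with dividing basal cells that move up, flatten and cornify. Trp63 sets up and maintains the basal layer, while Klf4, Grhl3, Ovol1 and Zfp750 act in the cells that leave it and build the barrier. The normal prostate epithelium also has basal cells that need Trp63, but it makes secretory luminal cells above them in place of cornified layers.

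Depth was 16.5 to 28.7 M reads, and values are CPM, a library's counts scaled to the same total of reads assigned to genes. Mpc1 itself was at 2.36, 2.41 and 2.38 CPM in Vehicle, 2.04, 2.47 and 2.30 CPM with UK5099, and 0.522, 0.533 and 0.598 CPM in Mpc1-KO, where it fell (log2 fold change -1.46, limma adjusted p = 6.7e-04). Basal keratins were abundant in every library, with means of 1629 CPM for Krt5 and 1244 CPM for Krt14 in Vehicle. So were the luminal keratins Krt8, Krt18, Krt19 and Krt7, with Vehicle means of 767, 1308, 2931 and 2302 CPM. Of the listed luminal genes, the secretory gene Pbsn was the lowest in Vehicle, at a mean of 0.073 CPM.

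Sequences around the start of these genes are shown first, as a description only. Start site windows of 250 bases before and 50 after the start were taken from RefSeq (GRCm38.p6) for the 5 of 10 members found in the table used here. Bcl11b, Grhl1, Grhl3 and Klf4 rose with UK5099, and Tfap2a rose in Mpc1-KO. Capitals mark the motifs searched on both strands, each written here in 1 orientation. They were the GC box GGGCGG and the KLF box CCACCC (bound by KLF and SP factors), the AP-2 palindrome GCCNNNGGC, the grainyhead palindrome AACCGGTT, the OVOL core CCGTTA, the core GCGTG of the aryl hydrocarbon receptor, the TATA box TATAAA and the p53 family half-site.
Klf4 (chr4:55532426-55532725, minus strand): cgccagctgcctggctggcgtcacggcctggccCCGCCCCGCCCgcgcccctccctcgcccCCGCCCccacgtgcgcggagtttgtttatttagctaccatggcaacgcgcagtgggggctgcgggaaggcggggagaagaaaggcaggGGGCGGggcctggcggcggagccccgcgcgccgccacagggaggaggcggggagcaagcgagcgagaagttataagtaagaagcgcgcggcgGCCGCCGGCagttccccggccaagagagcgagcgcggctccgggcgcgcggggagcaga
Grhl3 (chr4:135573583-135573882, minus strand): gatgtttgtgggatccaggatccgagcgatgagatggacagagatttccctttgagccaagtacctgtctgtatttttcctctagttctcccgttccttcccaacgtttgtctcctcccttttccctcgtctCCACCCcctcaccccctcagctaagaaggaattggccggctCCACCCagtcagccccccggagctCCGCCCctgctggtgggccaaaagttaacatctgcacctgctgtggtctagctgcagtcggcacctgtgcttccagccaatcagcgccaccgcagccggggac
Grhl1 (chr12:24572037-24572336, plus strand): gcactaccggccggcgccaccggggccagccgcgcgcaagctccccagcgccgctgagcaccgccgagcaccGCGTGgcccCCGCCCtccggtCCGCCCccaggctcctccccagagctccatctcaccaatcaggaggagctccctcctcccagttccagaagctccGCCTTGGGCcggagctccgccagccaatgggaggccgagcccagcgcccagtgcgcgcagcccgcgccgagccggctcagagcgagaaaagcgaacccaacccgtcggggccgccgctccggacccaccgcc
Bcl11b (chr12:108003365-108003664, minus strand): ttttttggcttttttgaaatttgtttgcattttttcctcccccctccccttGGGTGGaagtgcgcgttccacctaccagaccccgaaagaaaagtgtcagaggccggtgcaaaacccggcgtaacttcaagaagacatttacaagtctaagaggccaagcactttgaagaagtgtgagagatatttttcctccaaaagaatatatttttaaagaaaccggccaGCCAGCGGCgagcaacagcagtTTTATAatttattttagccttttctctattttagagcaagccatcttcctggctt
Tfap2a (chr13:40734871-40735170, minus strand): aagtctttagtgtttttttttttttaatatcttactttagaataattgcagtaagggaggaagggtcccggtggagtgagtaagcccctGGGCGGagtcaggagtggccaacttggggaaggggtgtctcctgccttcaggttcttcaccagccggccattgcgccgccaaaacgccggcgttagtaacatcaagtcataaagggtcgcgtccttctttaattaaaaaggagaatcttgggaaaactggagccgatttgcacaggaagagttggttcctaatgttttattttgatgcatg

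The Klf4 window held 4 GC boxes, a neighbouring pair of which shared 1 base, the Grhl1 window 2, and the Grhl3 and Tfap2a windows 1 each. The KLF box occurred in the Grhl3 window, at 2 places, and in the Bcl11b window. The AP-2 palindrome occurred in the windows of Klf4, Grhl1 and Bcl11b, and the receptor core in that of Grhl1 alone among these windows, and TATAAA in that of Bcl11b on the opposite strand. No grainyhead palindrome, OVOL core or p53 family half-site was in any of the 7 windows of these 5 genes, which include a further start of Grhl1 and of Tfap2a. These further windows, not printed, held 1 KLF box for Grhl1 and 1 GC box for Tfap2a. Among 32851 windows of the same length, 35.7% held the GC box, 31.5% the KLF box, 16.6% the AP-2 palindrome, 32.4% the receptor core, 13.6% TATAAA, 2.76% the OVOL core, 0.146% the grainyhead palindrome and 8.36% the p53 family half-site. The frequent motifs are therefore met in many promoters, and a match is a description of the letters only.

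The first comparison asked what the drug did to these genes. With UK5099, 7 of 10 members rose and none fell, against 19.9% of all tested genes that rose and 18.2% that fell (limma adjusted p below 0.05). Zfp750 and Bcl11b rose about 3.14-fold and 3.05-fold in mean CPM, Ovol1, Klf4 and Grhl1 between 2.09-fold and 2.17-fold, and Grhl3 and Trp63 1.79-fold and 1.72-fold. Klf5, Tfap2a and Grhl2 did not pass. The median log2 fold change was 0.90 over the members and 0.04 over all tested genes. In 8 of 10 members every UK5099 library lay above every Vehicle library, which held for 24.4% of tested genes. RNA of whole organoids was measured, so that more cells with a transcript and more transcript per cell cannot be told apart. Means are given ± SD over n = 3 libraries, and log2 fold changes, on log2(CPM + 0.5), ± SE.

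**Figure D1:**
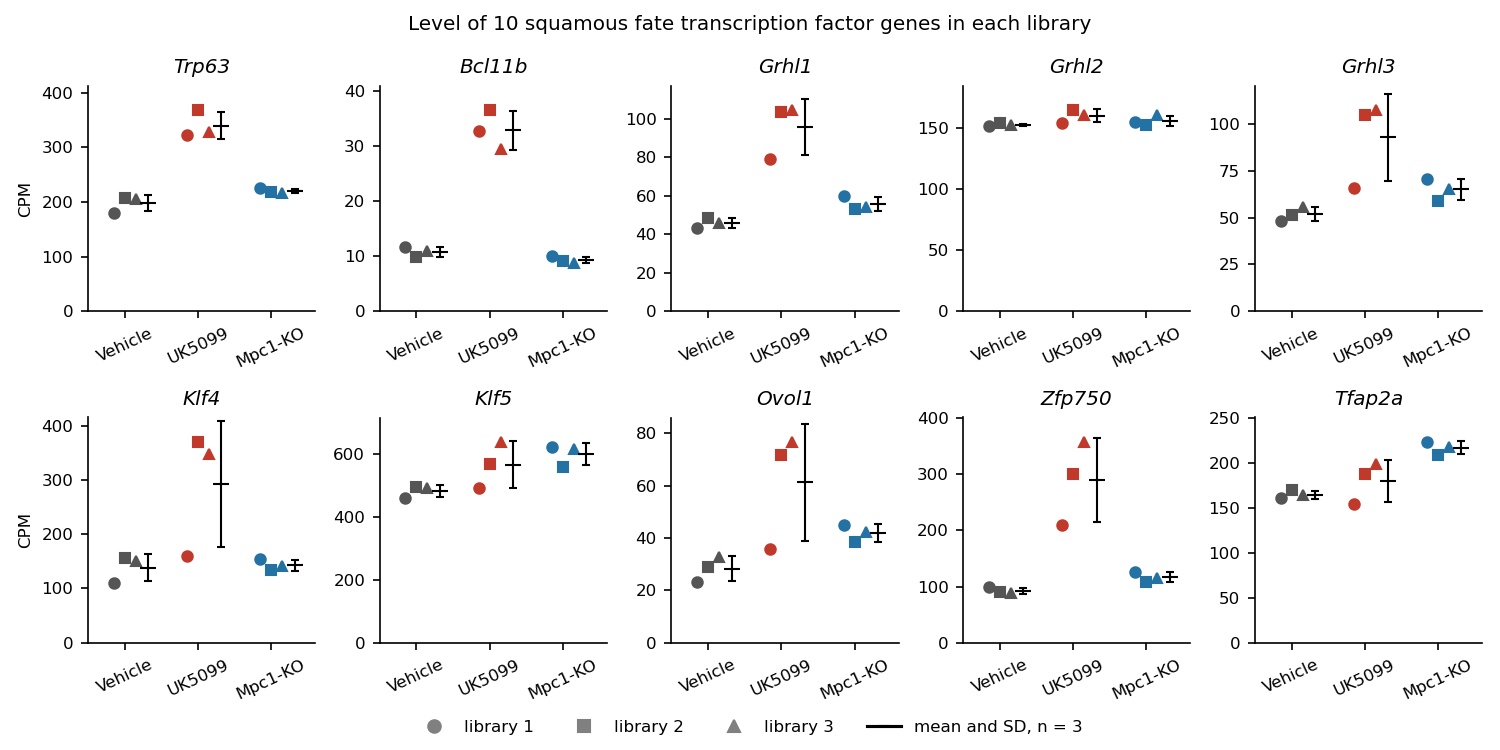
Level in CPM (vertical axes, each from 0) of the 10 genes in the 3 Vehicle, 3 UK5099 and 3 Mpc1-KO libraries, with library numbers as symbols and the mean ± SD (n = 3) in black. Bcl11b stood at 29.4 to 36.5 CPM with UK5099 against 8.82 to 11.6 CPM elsewhere, while Grhl2 stayed between 152 and 165 CPM in all 9 libraries.

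Trp63 codes for p63, the p53 relative without which stratified epithelia and prostate basal cells do not form in the mouse. It was at 181, 208 and 205 CPM in Vehicle libraries 1, 2 and 3, rose to 323, 369 and 328 CPM in the treated libraries, and stood at 225, 219 and 217 CPM in Mpc1-KO. The UK5099 libraries lay far above the rest, and the Mpc1-KO libraries lay just above the Vehicle libraries without overlap. From Vehicle (198 ± 15.1) to UK5099 (339.8 ± 25.1) Trp63 rose by a log2 fold change of 0.78 ± 0.07 (limma adjusted p = 2.4e-05). The difference between Mpc1-KO and Vehicle was 0.16 ± 0.07 (adjusted p = 0.18). Per gene counts do not separate the p63 isoforms with and without the transactivating domain.

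Bcl11b codes for a zinc finger factor of the epidermal basal layer that is better known for committing T cells. It was at 11.6, 9.82 and 11.0 CPM in Vehicle, 32.7, 36.5 and 29.4 CPM with UK5099, and 9.92, 9.02 and 8.82 CPM in Mpc1-KO. The UK5099 libraries formed a group of their own, and the Mpc1-KO and Vehicle libraries overlapped. The rise with UK5099 was 1.56 ± 0.11 (adjusted p = 4.7e-06), and Mpc1-KO differed from Vehicle by -0.21 ± 0.11 (adjusted p = 0.24), the only member with a negative value. Of 10 T cell markers, Cd3d, Cd3g, Cd2, Cd4 and Cd8a were listed at 0 in all 9 libraries. The 10 markers together summed to 2.17 to 3.40 CPM in Vehicle, 1.76 to 2.45 CPM with UK5099 and 1.69 to 2.30 CPM in Mpc1-KO, so their sum was not higher where Bcl11b was.

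The grainyhead-like factors bind epithelial junction and barrier genes. Grhl1, which controls desmosomal cadherins in the epidermis, was at 43.2, 48.3 and 45.9 CPM in Vehicle, 79.2, 104 and 105 CPM with UK5099, and 59.7, 53.02 and 54.2 CPM in Mpc1-KO. All 3 groups were separate, in the order Vehicle, Mpc1-KO, UK5099. The log2 fold change with UK5099 was 1.05 ± 0.11 (adjusted p = 4.8e-05), and in Mpc1-KO it was 0.28 ± 0.11 (adjusted p = 0.12). Grhl3, which the mouse epidermis needs to form its barrier, was at 48.3, 51.5 and 55.6 CPM in Vehicle, 66.0, 105 and 107 CPM with UK5099, and 70.6, 59.0 and 65.5 CPM in Mpc1-KO. UK5099 library 1 sat among the Mpc1-KO libraries, and all 6 libraries of these groups were above Vehicle. Grhl3 rose with UK5099 by 0.80 ± 0.16 (adjusted p = 0.0035), and the difference in Mpc1-KO was 0.32 ± 0.16 (adjusted p = 0.23).

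Grhl2, which keeps up E-cadherin and claudin genes in simple and layered epithelia alike, was at 152, 154 and 152 CPM in Vehicle, 154, 165 and 161 CPM with UK5099, and 155, 153 and 160.5 CPM in Mpc1-KO. It was the steadiest of the 10 genes, with a log2 fold change of 0.07 ± 0.05 with UK5099 (95% interval -0.04 to 0.17, adjusted p = 0.30) and 0.03 ± 0.05 in Mpc1-KO (95% interval -0.07 to 0.13, adjusted p = 0.72). Within each library, the log2 level of Grhl1 relative to Grhl2 was 0.98 higher with UK5099 than in Vehicle, and that of Grhl3 relative to Grhl2 was 0.74 higher. Grhl3 relative to Grhl1 was 0.24 lower on the log2 scale. None of these 3 differences had overlapping groups, and each gave p = 0.10 in a two-sided exact permutation test (0.13 after adjustment over 8 pairs), the smallest p that 3 libraries against 3 allow. In Mpc1-KO, Grhl1 and Grhl3 relative to Grhl2 were 0.25 and 0.29 higher (exact permutation p = 0.10 each).

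Klf4 and Klf5 are zinc finger factors of the Krüppel-like family, the first active in differentiating and the second in dividing layers. Klf4 was at 110.0, 155 and 149.8 CPM in Vehicle, 159, 371 and 348 CPM with UK5099, and 154, 134 and 141 CPM in Mpc1-KO. UK5099 libraries 2 and 3 stood far above all others, whereas UK5099 library 1 was barely above the highest Vehicle library. The log2 fold change with UK5099 was 1.00 ± 0.27 (adjusted p = 0.016) and that in Mpc1-KO 0.06 ± 0.27 (adjusted p = 0.91). The Klf4 call with UK5099 was lost without Vehicle library 1 (adjusted p = 0.059), UK5099 library 2 (0.064) or UK5099 library 3 (0.052), and over all alternatives its adjusted p reached at most 0.064. Across genes, the libraries numbered 1 of these groups deviated together, and the ratio of UK5099 to Vehicle was 1.45, 2.39 and 2.32 for numbers 1, 2 and 3. A pairing of numbers 2 and 3 was not shown, so their ratios are descriptions only.

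Klf5 was at 461, 494 and 490.4 CPM in Vehicle, 490.4, 567 and 638 CPM with UK5099, and 620.4, 557 and 616 CPM in Mpc1-KO. The Mpc1-KO libraries were above Vehicle without overlap, and the UK5099 libraries overlapped both. Neither difference passed, at 0.22 ± 0.09 with UK5099 (adjusted p = 0.077) and 0.31 ± 0.09 in Mpc1-KO (adjusted p = 0.055). Klf4 relative to Klf5 was 0.78 higher with UK5099 than in Vehicle on the log2 scale (no overlap, exact permutation p = 0.10) and 0.25 lower in Mpc1-KO (exact permutation p = 0.30).

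Ovol1 codes for a zinc finger repressor that acts as keratinocytes stop dividing. It was at 23.3, 29.1 and 32.7 CPM in Vehicle, 35.7, 71.6 and 76.9 CPM with UK5099, and 45.1, 38.4 and 42.4 CPM in Mpc1-KO. UK5099 libraries 2 and 3 were highest, and UK5099 library 1 lay below every Mpc1-KO library. Ovol1 rose with UK5099 by 1.04 ± 0.25 (adjusted p = 0.0084), and Mpc1-KO differed from Vehicle by 0.57 ± 0.25 (adjusted p = 0.17).

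Zfp750, which acts downstream of p63 in terminal epidermal differentiation, was at 98.9, 89.7 and 88.2 CPM in Vehicle, 209, 301 and 358 CPM with UK5099, and 125, 108 and 116 CPM in Mpc1-KO. The 3 groups were separate. With UK5099 it had the highest log2 fold change of the 10 genes, 1.61 ± 0.16 (adjusted p = 4.3e-05), and in Mpc1-KO the difference was 0.33 ± 0.16 (adjusted p = 0.21).

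Tfap2a codes for AP-2 alpha, an activator of keratinocyte genes. It was at 161, 169 and 164 CPM in Vehicle, 154, 187 and 199 CPM with UK5099, and 224, 209 and 218 CPM in Mpc1-KO. Here the Mpc1-KO libraries were the highest, above every library of both other groups, and UK5099 library 1 was the lowest of all 9. Tfap2a did not pass with UK5099 (0.12 ± 0.08, adjusted p = 0.29) but rose in Mpc1-KO, from 165 ± 4.36 to 217 ± 7.33 CPM (0.40 ± 0.08, adjusted p = 0.019).

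The second comparison asked what deletion of the carrier subunit did. In Mpc1-KO, Tfap2a was the 1 member of 10 that rose and none fell, where 5.64% of tested genes rose and 5.03% fell. At an unadjusted p under 0.05 there were 5 members, all upward, where 13.8% of tested genes were upward at that threshold. In 7 of 10 members every Mpc1-KO library was above every Vehicle library, which held for 24.2% of tested genes, and the median log2 fold change was 0.29 over the members and -0.01 over all tested genes. These 7 were Trp63, Grhl1, Grhl3, Klf5, Ovol1, Zfp750 and Tfap2a. The comparison shares its Vehicle libraries with that of UK5099, so the values of both are not independent.

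How many members passed in Mpc1-KO depended on the libraries in the fit. The median SD of a tested gene on the log2 scale was 0.181 in UK5099, 0.088 in Vehicle and 0.061 in Mpc1-KO, and the fit of all 9 libraries shared 1 spread. With only the 6 Mpc1-KO and Vehicle libraries, all 7 members named above passed, as did 17.5% of tested genes in the upward direction. The adjusted p then ran from 8.4e-04 for Klf5 to 0.037 for Trp63 among the 6 members gained. Without UK5099 library 1, 6 members passed (14.1% of tested genes rose), and without UK5099 library 3, 2 did (8.45%). The Tfap2a call was lost without any 1 of the Vehicle or Mpc1-KO libraries (adjusted p = 0.054 to 0.091) and with median-of-ratios scaling (0.054), while over all alternatives its adjusted p ran from 5.4e-05 to 0.091 and its log2 fold change from 0.37 to 0.42.

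**Figure D2:**
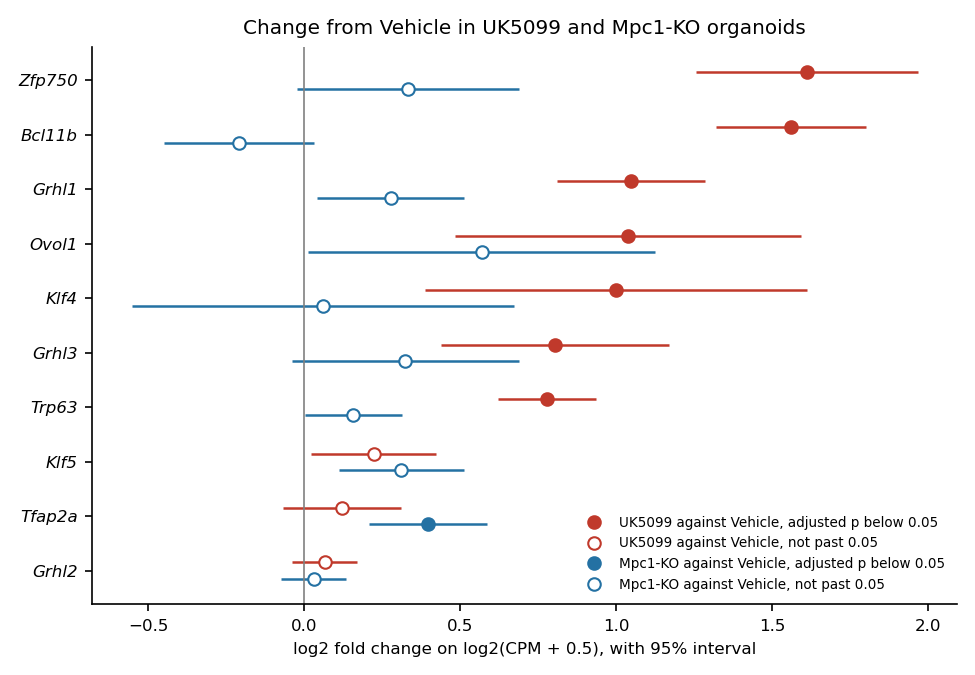
Log2 fold change from Vehicle (horizontal axis, on log2(CPM + 0.5)) of each gene with UK5099 and in Mpc1-KO, with unadjusted 95% intervals from the fit of all 9 libraries and filled points for an adjusted p below 0.05. With UK5099, 7 genes passed, from 0.78 for Trp63 to 1.61 for Zfp750, and in Mpc1-KO only Tfap2a did, at 0.40.

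Mpc1-KO and UK5099 were then compared directly, a test of whether drug and deletion differed in size, in which virus, deletion and drug all changed together. Between these groups 6 members were lower in Mpc1-KO and 1 was higher, against 23.2% and 21.1% of tested genes. The lower members were Bcl11b (log2 fold change -1.77 ± 0.11, adjusted p = 3.4e-06), Zfp750 (-1.28 ± 0.16, adjusted p = 1.9e-04), Klf4 (-0.94 ± 0.27, adjusted p = 0.020), Grhl1 (-0.77 ± 0.11, adjusted p = 3.4e-04), Trp63 (-0.62 ± 0.07, adjusted p = 1.0e-04) and Grhl3 (-0.48 ± 0.16, adjusted p = 0.037). Tfap2a was higher in Mpc1-KO (0.28 ± 0.08, adjusted p = 0.024). For Ovol1 the difference was -0.47 ± 0.25 (adjusted p = 0.15), for Klf5 0.09 ± 0.09 (adjusted p = 0.45) and for Grhl2 -0.04 ± 0.05 (adjusted p = 0.55).

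The calls of Bcl11b, Zfp750, Grhl1 and Trp63 between Mpc1-KO and UK5099 held in all 19 alternatives, with an adjusted p of at most 0.0028. That of Grhl3 was lost in 13 of 19 (adjusted p up to 0.12), and those of Klf4 and Tfap2a in 5 of 19 each (up to 0.073 and 0.082). Without Mpc1-KO library 3 the number of members called fell from 7 to 4, and without UK5099 library 1 Ovol1 passed as well (-0.82).

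The spread within UK5099 was not even across the members. UK5099 library 1 was the lowest of the 3 UK5099 libraries for 9 of 10 members, all but Bcl11b, while this held for 25.4% of tested genes. On the log2 scale library 1 was below the mean of libraries 2 and 3 by 1.17 for Klf4, 1.04 for Ovol1, 0.68 for Grhl3, 0.65 for Zfp750 and 0.39 for Grhl1. For Trp63 the gap was 0.11 and for Bcl11b 0.00. Klf5 and Tfap2a had gaps of 0.29 and 0.32, and Grhl2 one of 0.08. Vehicle library 1, which shares its number, was in turn the lowest Vehicle library for 8 of 10 members, all but Bcl11b and Zfp750, and for 31.7% of tested genes. It was below the mean of Vehicle libraries 2 and 3 by 0.47 for Klf4, 0.40 for Ovol1, 0.19 for Trp63 and 0.15 for Grhl3, so the low values of number 1 were not limited to UK5099. The ratio of UK5099 to Vehicle within number 1 was still the lowest of the 3 numbers for Klf4, Ovol1, Grhl3, Zfp750 and Grhl1, but for Trp63 it was the highest (1.79, against 1.77 and 1.60). Such ratios describe libraries of the same number, which were not shown to be pairs for numbers 2 and 3.

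In UK5099 library 1 the 16 cornified and suprabasal markers summed to 3104 CPM, against 4841 and 3612 CPM in UK5099 libraries 2 and 3, and the 9 basal markers to 24514 CPM, against 24128 and 22120 CPM. Mitochondrially encoded transcripts were 1.03% of reads in library 1 and 0.731% and 0.782% in libraries 2 and 3, and in Vehicle 0.849%, 0.658% and 0.772% in libraries 1, 2 and 3. The part of either in the low values of library 1 was not tested. Without UK5099 library 1, Klf5 (0.32, adjusted p = 0.0019) and Tfap2a (0.23, adjusted p = 0.0027) passed against Vehicle as well, which made 9 of 10 members, against 21.2% of tested genes that rose.

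**Figure D3:**
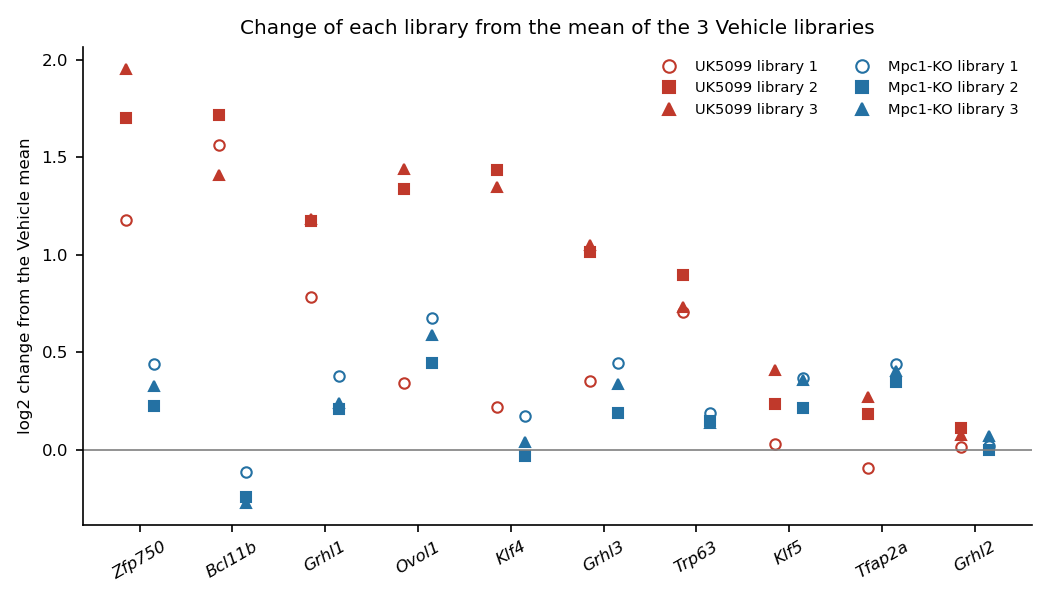
Log2 change of each UK5099 (red) and Mpc1-KO (blue) library from the mean of the 3 Vehicle libraries (vertical axis) for each gene, ordered by the change with UK5099. UK5099 library 1 (open red circles) lay below libraries 2 and 3 for 9 of 10 genes, by 1.17 for Klf4 and by 0.11 for Trp63, with Bcl11b the exception.

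To set genes beside each other, levels were divided by exon length, with every annotated exon base of a gene counted once. This length can exceed that of the transcripts present, so the order of genes is approximate. In Vehicle, CPM per kilobase of exon was highest for Klf5 (92.6), followed by Klf4 (45.4), Tfap2a (33.6), Zfp750 (28.6) and Trp63 (23.6). Grhl3 (18.6) and Grhl2 (17.7) came next with overlapping libraries, then Grhl1 (8.27) and Ovol1 (8.13), again overlapping, and Bcl11b was lowest (1.33). With UK5099 the level per kilobase of Klf4 (96.0) and Zfp750 (89.6) came close to that of Klf5 (109), while Bcl11b was still lowest at 4.05. In Mpc1-KO Klf5 was again highest (115), followed by Klf4 (46.8) and Tfap2a (44.2), whose libraries overlapped.

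For the 3 members with the highest log2 fold changes with UK5099, the tested gene with the most similar course over the 9 libraries was looked up among 11556 genes. For Zfp750 it was Ppp1r14c, which codes for an inhibitor of protein phosphatase 1, with means of 11.2, 34.5 and 13.8 CPM in Vehicle, UK5099 and Mpc1-KO and a root mean square difference of 0.14 on the log2 scale. For Bcl11b it was Dsc3, which codes for a desmosomal cadherin of basal layers, with means of 67.1, 204 and 60.9 CPM (0.12). For Grhl1 it was Tiam1, which codes for an exchange factor of the GTPase Rac, with means of 93.2, 194 and 108 CPM (0.085). Among the members themselves, Klf5 and Tfap2a ran closest to each other (0.084), ahead of Grhl1 and Grhl3 (0.17).

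Relatives of the members did not move as one. Of 24 listed genes of the p53, BCL11, KLF, OVOL and AP-2 families, 16 could be tested, and with UK5099 6 rose and 2 fell, with a median of 0.08. Over all tested genes 19.9% rose and 18.2% fell. Trp73, which codes for p73, the other p53 relative, was at 0.125 to 0.317 CPM in Vehicle, 5.17 to 6.85 CPM with UK5099 and 0.735 to 1.01 CPM in Mpc1-KO. It rose with UK5099 (3.13, adjusted p = 1.4e-06), and passed the minimum for testing through the UK5099 libraries alone, so its rise there adds nothing to the count. Tfap2c, the AP-2 partner of Tfap2a in epidermis, rose with UK5099 (0.66, adjusted p = 8.6e-05), as did Klf3 (0.46, adjusted p = 4.5e-04), while Klf2, best known from endothelium and T cells, fell (-1.41, adjusted p = 0.0014).

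In Mpc1-KO, where 5.64% of all tested genes rose and 5.03% fell, 2 relatives rose and 2 fell. These were Trp73 (0.88, adjusted p = 0.015) and Tfap2c (0.39, adjusted p = 0.012) upward, and Trp53 (-0.93, adjusted p = 0.0048) and Klf12 (-0.63, adjusted p = 0.027) downward, the last 2 named after their values were seen. Both AP-2 genes that could be tested, Tfap2a and Tfap2c, thus passed upward in Mpc1-KO.

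Of 18 tested other regulators of stratified epithelium, 5 rose and 2 fell with UK5099 (median 0.17), beside the 19.9% and 18.2% of all tested genes given above. In Mpc1-KO 1 rose and 1 fell, which is near the 5.64% and 5.03% of all tested genes. Sox15 rose with UK5099 from 23.3 to 52.7 CPM (1.16, adjusted p = 1.0e-05), and the CCAAT binding factors Cebpa (0.82, adjusted p = 2.9e-04) and Cebpb (0.61, adjusted p = 9.0e-05), which help keratinocytes leave the cycle, rose too. Dlx5, a homeobox gene, rose from a mean of 0.097 to 2.98 CPM (2.42, adjusted p = 3.9e-04). It also passed the minimum through the UK5099 libraries alone, so it had to differ and its rise adds nothing to the count. In Mpc1-KO the rising gene was Gata3 (0.53, adjusted p = 0.0042) and the falling one Foxn1 (-0.58, adjusted p = 0.0096), both named after their values were seen.

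Genes known as targets of the factors gave different counts for different factors. Over all tested genes, 19.9% rose and 18.2% fell with UK5099. Of 14 tested Trp63 targets, 9 rose and 2 fell with UK5099. Krt5 (1.99, adjusted p = 3.2e-07), Krt14 (1.86, adjusted p = 1.3e-06), the desmosome gene Perp (1.11, adjusted p = 6.7e-05) and Sfn (0.89, adjusted p = 2.6e-05), which codes for the 14-3-3 protein of keratinocytes, rose. Lamb3 (-0.49, adjusted p = 3.6e-04) and Itgb4 (-0.23, adjusted p = 0.016), named after their values were seen, fell. The list was not split into genes that p63 activates and genes that it represses. Of 11 tested grainyhead targets, 4 rose and 1 fell. The transglutaminases Tgm1 (2.89, adjusted p = 7.2e-06) and Tgm5 (3.44, adjusted p = 2.0e-06), which crosslink the cornified envelope, and the small GTPase gene Rab25 (0.80, adjusted p = 1.5e-05) rose, and the adhesion gene Epcam fell (-0.93, adjusted p = 9.5e-06). Tgm5, with means of 0.600 CPM in Vehicle and 0.517 CPM in Mpc1-KO, entered the tests only through the UK5099 libraries, so it had to differ and its rise adds nothing to the count.

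Of 11 tested targets of Klf4, Klf5 and Zfp750, 9 rose with UK5099 and none fell. Involucrin, coded by Ivl, rose by 1.41 (adjusted p = 1.7e-06), the envelope plakin gene Evpl by 2.10 (adjusted p = 2.3e-05), and the mucosal keratins Krt4 and Krt13 by 2.79 (adjusted p = 1.5e-05) and 5.32 (adjusted p = 6.9e-07). The median log2 fold changes with UK5099 were 0.52 for the Trp63 targets, 0.02 for the grainyhead targets and 1.41 for the targets of Klf4, Klf5 and Zfp750. In Mpc1-KO 2 genes of each of these 3 lists rose, and 1 Trp63 target fell, beside 5.64% and 5.03% of all tested genes. Medians there were 0.07, -0.03 and 0.27 in the same order.

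All 14 tested cornified and suprabasal markers rose with UK5099, at a median of 3.40, although 2 of the 16 listed were under the minimum and 7 of the 14 passed it through the UK5099 libraries alone, so the count and median are descriptions only. Krt10, the keratin of the first suprabasal layer in skin, rose from a mean of 2.43 to 360.3 CPM (6.80, adjusted p = 1.3e-06) and Krtdap from 0.802 to 100.04 CPM (6.24, adjusted p = 3.3e-07). The wound keratins Krt16 (3.84, adjusted p = 1.3e-06) and Krt6a (2.96, adjusted p = 1.7e-07) rose as well. In Mpc1-KO 1 of the 14 rose, Krtdap (1.60, adjusted p = 0.0056), to a mean of 3.40 CPM, and the list's median was 0.08. Of all tested genes 5.64% rose there.

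**Figure D4:**
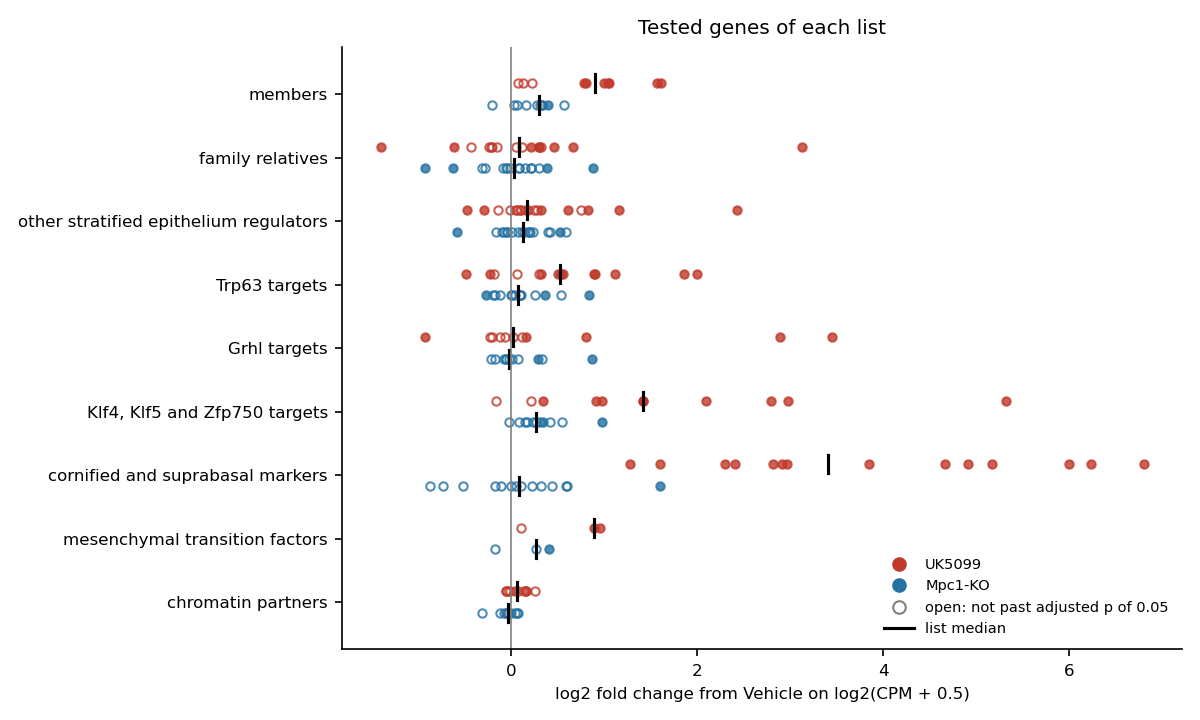
Log2 fold change from Vehicle (horizontal axis, on log2(CPM + 0.5)) of the tested genes in each list with UK5099 (red) and in Mpc1-KO (blue), filled where the adjusted p was below 0.05, with list medians as black bars. The members had medians of 0.90 with UK5099 and 0.29 in Mpc1-KO, and the cornified and suprabasal markers 3.40 and 0.08.

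Grainyhead and OVOL factors are known to hold down genes of the mesenchymal transition. Of 8 such factors only Snai2, Snai3 and Twist2 could be tested. Snai2, which is also a p63-linked factor of basal keratinocytes, rose with UK5099 (0.89, adjusted p = 2.7e-05) and in Mpc1-KO (0.41, adjusted p = 0.015), and Snai3 had a mean of 1.74 CPM with UK5099 against 0.656 CPM in Vehicle and 0.895 CPM in Mpc1-KO (0.95, adjusted p = 8.2e-04), having reached the minimum only through the UK5099 libraries. Zeb1, under the minimum over all libraries and named after its values were seen, had means of 1.49 CPM in Vehicle, 0.138 CPM with UK5099 and 0.408 CPM in Mpc1-KO. Snai1, also under the minimum, had means of 0.790, 0.092 and 0.793 CPM in the same order. A link of these values to the members was not tested. Of 10 chromatin partners of such factors, 1 rose with UK5099, Rcor1 (0.15, adjusted p = 0.033), where 19.9% of all tested genes rose, and none passed in Mpc1-KO.

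Markers of other cells moved alongside the members. With UK5099, 5 of 9 tested basal markers rose and 2 fell, 5 of 7 luminal markers fell and none rose, and 6 of 7 mesenchymal markers fell and 1 rose. Over all tested genes 19.9% rose and 18.2% fell. Most of the basal markers were also counted as Trp63 targets above. The mesenchymal list summed to 6758 to 7944 CPM in Vehicle, 280.2 to 614 CPM with UK5099 and 2740.2 to 3604 CPM in Mpc1-KO, nearly all of it Fn1 (-4.20 with UK5099) and Vim (-4.20), while Col1a2 and Thy1 were at 0 in every library. The urothelial list summed to 44.2 to 49.4 CPM in Vehicle, 155 to 318 CPM with UK5099 and 45.9 to 51.9 CPM in Mpc1-KO, with 3 of 4 tested genes up and 1 down with UK5099. Both tested myeloid markers, Cd68 and Cd14, fell with UK5099, with Adgre1 at 0 in every library, and the 5 endothelial markers summed to at most 1.82 CPM in any library. The part of these markers in the values of the transcription factors was not tested.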

How the data were processed

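Stranded mRNA libraries were sequenced by the authors as single-end reads and aligned with STAR (2.7.9a, GRCm39, in the submitters' processing notes). The deposited values are CPM, made by the authors in Partek Flow with 0.0001 added, which was subtracted here. Between 99.9% and 99.93% of values up to 1000 reads lay within 0.02 of a whole read, which gave the depth.

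A gene entered the tests if its CPM averaged 1 or more across libraries, which left 12396. Models were fitted in limma (3.58.1, R 4.3.3) to log2(CPM + 0.5) of all 9 libraries together, with a mean-variance trend and 6 residual degrees of freedom. Two-sided p-values received Benjamini-Hochberg adjustment across these genes, and calls were made below 0.05. The procedure was tested on simulated data with the same spread in all groups, so that test does not cover the unequal spread of these groups. Exon lengths came from GENCODE M21, as the union of all annotated exons of a gene.

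Members and lists were chosen with earlier results of these data known. The text names up to 4 genes per list, those with the smallest p with UK5099 among genes that passed, and for 3 members the most similar gene, predicted genes left out. Same-number libraries of Vehicle and UK5099 deviated together across genes (r = 0.44, 0.14 and 0.31). Between different numbers r ran from -0.43 to 0.26, and Vehicle library 2 was closer to UK5099 library 3 (0.26) than to UK5099 library 2. Number 1 alone stood apart, so a pairing of numbers 2 and 3 was not shown. The main fit used no pairing. Alternatives were other pseudocounts, filters, scalings, thresholds, no trend, fewer libraries and a replicate block. Symbols turned into dates (24) were not analysed.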

Additional observations from a re-analysis of the deposited data

How the results depend on the processing

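For single members, 516 values kept direction and side of the threshold, 35 lost the call, 16 gained it and 3 changed sign, over 19 alternatives for each of 30 values. The sign changed for Klf4 in Mpc1-KO against Vehicle without Vehicle library 1 (-0.10, with a range of -0.10 to 0.15 on leaving out single libraries), for Grhl2 in Mpc1-KO against UK5099 with median-of-ratios scaling (0.0078) and for Klf5 in Mpc1-KO against UK5099 without UK5099 library 1 (-0.011, range -0.011 to 0.18). With UK5099, 7 members passed in every alternative that kept all libraries and the 0.05 threshold.

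In Mpc1-KO against Vehicle, 0 members passed with median-of-ratios scaling or at an adjusted p below 0.01, 2 with a replicate block and 7 with only the 6 libraries. Over all genes, 1323 passed there, 761 without a filter on low values, 326 at 0.01 and 4399 with only the 6 libraries. For UK5099 against Vehicle the number went the other way, from 4721 genes to 3474 with only its 6 libraries. All 7 members still passed there, Klf4 with an adjusted p of 0.047. At 0.01, 3023 genes passed for UK5099 against Vehicle and 3395 for Mpc1-KO against UK5099, with 4 members in the latter.

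Leaving out 1 library gave 6 to 9 members for UK5099 against Vehicle, 0 to 6 for Mpc1-KO against Vehicle and 4 to 8 for Mpc1-KO against UK5099, and 3439 to 5683, 309 to 3593 and 4004 to 6205 genes in all. With UK5099, Grhl1 minus Grhl2 ran from 0.92 to 1.09, Grhl3 minus Grhl2 from 0.62 to 0.94, Grhl3 minus Grhl1 from -0.30 to -0.15 and Klf4 minus Klf5 from 0.56 to 1.07. In Mpc1-KO these ran from 0.19 to 0.29, 0.23 to 0.35, 0.01 to 0.10 and -0.38 to -0.18, settings chosen after seeing the data.

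With the replicate number as a block, the call that changed among the members was that of Klf5 in Mpc1-KO against Vehicle (adjusted p = 0.045, range over alternatives 8.4e-04 to 0.19). There the same-number correlations were -0.04, -0.02 and 0.09, and -0.12, -0.08 and 0.12 against UK5099, so these numbers do not pair libraries. The causes of these shifts were not tested. With 3 libraries per group, a permutation test cannot go below 0.10, and differences under the spread between libraries were not detectable.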
